A study of Mus musculus with 6 samples.

Results

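The genes described here take up, activate and store fatty acids in bone marrow-derived macrophages (BMDMs). They were chosen by name as lipid scavenging, acyl-CoA synthetase and lipid droplet genes: *Cd36*, *Msr1*, *Lpl*, *Fabp4*, *Fabp5*, *Acsl1*, *Acsl3*, *Acsl4*, *Plin2* and *Dgat1*. All 10 were found among the 24562 genes of the deposited table, and all 10 passed the filter on low counts that left 11470 genes for testing. RNA of unstimulated (naive) BMDMs was sequenced in 3 control and 3 AclyM-KO libraries, from female mice according to the series design, while the study's methods name both sexes for its in vitro work. Control cells, labelled AclyM-WT or WT, came from Cre-negative *Acly* fl/fl mice. AclyM-KO cells came from *Acly* fl/fl mice that also carry Cre under the *Lyz2* promoter (LysM), so both groups share the floxed *Acly* allele on a C57BL/6J background. The labels give no age, and the methods state an age range for all in vitro work that is not tied to these libraries. The marrow was grown in medium conditioned by L929 cells, which supplies macrophage colony-stimulating factor. According to the study, mice were pooled for its in vitro experiments and technical replicates were then derived, so p-values may measure a technical spread only.

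Macrophages meet lipid as lipoproteins and as free fatty acids. Scavenger receptors bind modified lipoproteins and, for CD36, also long-chain fatty acids, while lipoprotein lipase frees fatty acids from triglyceride-rich particles. Inside the cell, fatty acid-binding proteins carry the fatty acids, and long-chain acyl-CoA synthetases (ACSL) attach them to coenzyme A, the step that traps and activates them. Acyl-CoA is then esterified to triglyceride by diacylglycerol acyltransferases and kept in droplets that perilipin 2 coats. ATP citrate lyase, encoded by *Acly*, makes cytosolic acetyl-CoA from citrate, the building block of newly made fatty acids and cholesterol.

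The labels were checked first with the targeted gene. In AclyM-KO replicates 1, 2 and 3 *Acly* was at 93.3, 98.9 and 98.3 CPM (counts scaled to the size of each library), and the control replicates held 220.4, 233 and 236 CPM, a log2 fold change of -1.25 (edgeR, adjusted p = 5.58e-07). The row counts reads over the whole transcript, so reads outside the deleted part still count. *Lyz2*, whose promoter drives Cre, was also lower in AclyM-KO (log2 fold change -1.05). Total counts ranged from 19327459 to 44507233, and AclyM-KO replicate 2 was sequenced the deepest. Of macrophage markers, *Csf1r*, the receptor for macrophage colony-stimulating factor, averaged 3237 ± 145 CPM in control and 2325 ± 547 CPM in AclyM-KO (SD, n = 3 each). The summed level of the 8 macrophage markers ranged from 21672 to 22659 CPM in control and from 12656 to 15295 CPM in AclyM-KO. *Lyz2*, at 13305 and 6437 CPM on average, is the Cre insertion site, so it and this sum cannot measure macrophage content here. Of the 8, 3 were lower in AclyM-KO (*Lyz2*, *Csf1r* and *Mertk*) and the other 5 did not pass the test. Among those 5, *Adgre1* averaged 1635 CPM in control and 1722 CPM in AclyM-KO, and *Cd68* 2411 and 2426 CPM. Of the other cell types that express the lipid genes, the summed markers of adipocytes were at or below 0.180 CPM in every library, with *Lep*, *Cidec*, *Plin1* and *Cfd* at 0 counts throughout.

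*Acsl3* and *Cd36* rose in AclyM-KO macrophages, by 2.07-fold and 1.59-fold, and the other 8 genes did not pass the test. The count of 2 of 10 genes called, both higher, stands beside 12.3% of all tested genes called in either direction, 6.70% called higher and 5.65% called lower. The median log2 fold change of the 10 genes was 0.23, beside 0.00026 over all genes tested. It leaned on AclyM-KO replicate 2, the highest library in 9 of the 10. Without that library *Msr1* went from 0.35 to 0.12, *Lpl* from 0.31 to 0.14 and *Fabp4* from 0.27 to 0.04, while *Dgat1* went from -0.0028 to 0.19. In 2 of the 10 genes, the same 2, every AclyM-KO library lay above every control library, and 16.3% of all tested genes did so (32.8% in either direction).

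The region before the transcription start is shown for these 2 genes, since they are the members that changed. Both windows hold the 250 bases upstream of the RefSeq start in GRCm38.p6, the assembly called mm10 in the study's alignment, 5′ to 3′ on the gene's strand. Capitals mark GC boxes (GGGCGG or its reverse complement) and CCAAT boxes (on either strand), which may adjoin or overlap. The *Acsl3* window is chr1:78657575-78657824 on the plus strand and the *Cd36* window is chr5:17835897-17836146 on the minus strand, which precedes one of several *Cd36* starts.
Acsl3: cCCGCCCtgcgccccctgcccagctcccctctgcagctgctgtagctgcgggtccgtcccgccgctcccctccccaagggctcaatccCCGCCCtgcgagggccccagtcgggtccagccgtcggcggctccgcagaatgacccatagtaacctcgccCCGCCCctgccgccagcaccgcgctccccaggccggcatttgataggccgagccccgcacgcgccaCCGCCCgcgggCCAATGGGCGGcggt
Cd36: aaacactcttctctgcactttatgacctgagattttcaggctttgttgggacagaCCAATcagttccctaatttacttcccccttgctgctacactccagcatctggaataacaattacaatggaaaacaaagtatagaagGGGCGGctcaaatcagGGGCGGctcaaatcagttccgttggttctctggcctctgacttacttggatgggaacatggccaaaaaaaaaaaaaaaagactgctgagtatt
The *Acsl3* window had 75.6% G and C, with 5 GC boxes and 1 CCAAT box, the last GC box directly after the CCAAT box. The *Cd36* window had 43.2% G and C, with 2 GC boxes and 1 CCAAT box, and the median over 32851 windows was 52.4%. RefSeq windows were at hand for 5 of the 10 members (*Acsl1*, with 2 windows, *Acsl3*, *Acsl4*, *Cd36* and *Plin2*). A GC box was found in 4 of these 6 windows and in 32.7% of all windows, and a CCAAT box in 4 of 6 and in 33.8%. A sterol regulatory element, spelled TCACNCCAC, was found on either strand in 1 *Acsl1* window and in 1.05% of all windows, and *Acsl1* did not pass the test. No member window held CACGTG (6.02% of all), TATAAA (12.4%), TGACTCA (4.46%) or a direct repeat of AGGTCA spaced by 1 base (0.0335%) or by 4 bases (0.0152%), each searched on both strands. A match is a description of letters, and a missing match says only that these letters are not in this window.

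*Cd36* (NM_001159558, GRCm38 chr5:17781690-17888959) encodes the class B scavenger receptor for oxidized LDL and long-chain fatty acids. Control replicates 1, 2 and 3 held 1012, 1098 and 1129.9 CPM, and AclyM-KO replicates 1, 2 and 3 held 1446, 2134 and 1560.0 CPM. All 3 AclyM-KO libraries lay above all 3 control libraries, with AclyM-KO replicate 2 the highest. The mean rose from 1079.8 ± 61.1 to 1713 ± 369 CPM (SD, n = 3 each). The log2 fold change was 0.67 with a standard error of 0.121 and a 95% interval from 0.40 to 0.93 (edgeR, adjusted p = 0.00489). Without AclyM-KO replicate 2 it was 0.48 (edgeR, adjusted p = 3.37e-06). All 5 RefSeq rows of *Cd36* gave the same log2 fold change to 2 decimals, 0.67, when every row of the table was tested. These rows count largely the same reads, so they are not independent measurements.

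*Msr1* (NM_031195, GRCm38 chr8:39543232-39642750) encodes scavenger receptor A, which takes up modified LDL. It was at 288, 312 and 312 CPM in control and at 308, 499 and 354 CPM in AclyM-KO replicates 1, 2 and 3. AclyM-KO replicates 2 and 3 lay above all control libraries and replicate 1 lay among them. Its log2 fold change of 0.35 (95% interval 0.05 to 0.65) did not pass the threshold after adjustment (edgeR, adjusted p = 0.124). *Lpl* (NM_008509, GRCm38 chr8:68880555-68906932) encodes lipoprotein lipase, the enzyme that hydrolyses triglyceride in lipoproteins. It was at 3953, 4752 and 4289 CPM in control and at 4589, 6564 and 4965 CPM in AclyM-KO. The groups overlapped, since AclyM-KO replicate 1 lay below control replicate 2. Its log2 fold change was 0.31 (95% interval 0.05 to 0.57) with an adjusted p of 0.115 (edgeR). Without AclyM-KO replicate 1, *Msr1* and *Lpl* passed the threshold (log2 fold changes 0.49 and 0.41), which brought the members called to 4, beside 14.2% of all genes tested then. Without AclyM-KO replicate 2 neither passed, at 0.12 and 0.14.

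*Fabp4* (NM_024406, GRCm38 chr3:10204342-10208616), a carrier of fatty acids found in adipocytes and macrophages, was at 101, 126 and 95.5 CPM in control and at 104, 165 and 117 CPM in AclyM-KO. The ranges overlapped, and the log2 fold change of 0.27 had a 95% interval from -0.07 to 0.60 (edgeR, adjusted p = 0.297). *Fabp5* (NM_010634, GRCm38 chr3:10012585-10016610), the related carrier first known from skin, was at 605, 666 and 554 CPM in control and at 575, 738 and 657 CPM in AclyM-KO. Its groups overlapped too, with a log2 fold change of 0.11 (95% interval -0.10 to 0.32, edgeR adjusted p = 0.502). The *Fabp5* transcript has 5 near-identical copies elsewhere in the genome, up to 98.3% identical, none of them a row of the table, so its counts are uncertain to the extent that reads were placed between copies. As a share of the summed RPKM (CPM divided by transcript length in kilobases, without scaling factors) of *Fabp3*, *Fabp4* and *Fabp5*, *Fabp5* made up 83.4% ± 0.874 in control and 82.0% ± 1.88 in AclyM-KO (SD, n = 3 each). This difference of -1.47 percentage points had an exact permutation p of 0.300, two-sided (0.42 adjusted over the 7 member shares tested), where 3 libraries against 3 cannot give a p below 0.10. It was -0.39 without AclyM-KO replicate 2, and -0.61 with RPKM summed over all rows of a gene.

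**Figure D1:**
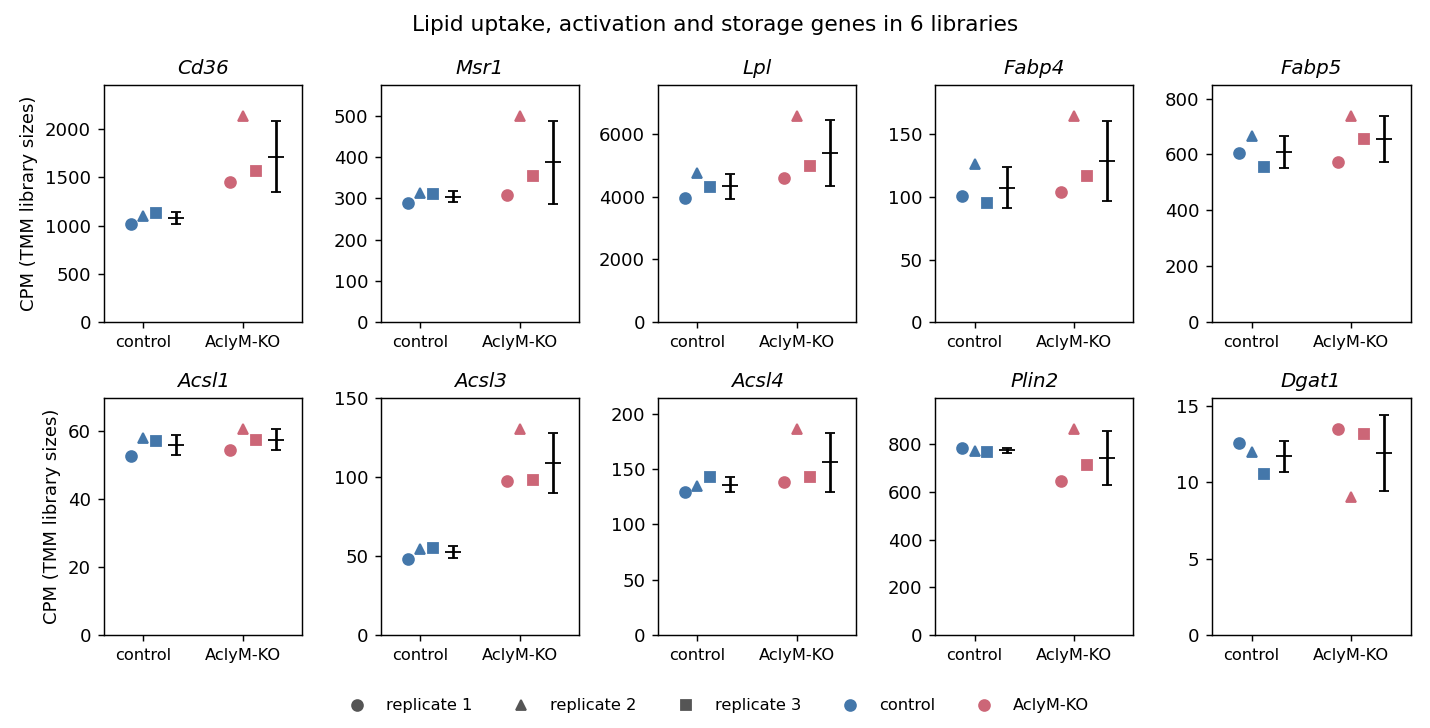
CPM of the 10 genes (vertical axes, from 0) in the 3 control (blue) and 3 AclyM-KO (red) libraries, with the replicate number as marker shape and the mean ± SD in black beside each group. The groups are separate for *Cd36* and *Acsl3*, and AclyM-KO replicate 2 (triangle) is the highest library in 9 of the 10 panels and the lowest in *Dgat1*.

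The acyl-CoA synthetases did not move alike. *Acsl3* (NM_028817, GRCm38 chr1:78657825-78707743) encodes a synthetase of the endoplasmic reticulum and of nascent lipid droplets. Control replicates 1, 2 and 3 held 48.0, 54.9 and 54.9 CPM, and the AclyM-KO replicates held 97.8, 131 and 98.0 CPM. The lowest AclyM-KO library was far above the highest control library, and the mean rose from 52.6 ± 3.97 to 109 ± 18.9 CPM (SD, n = 3 each). The log2 fold change was 1.05 with a standard error of 0.115 and a 95% interval from 0.80 to 1.30 (edgeR, adjusted p = 2.06e-04). It ranked 59 among the 11470 genes by p. Without AclyM-KO replicate 2 the log2 fold change was 0.90 (edgeR, adjusted p = 2.72e-08). The 3 RefSeq rows, which share most reads, gave values from 1.06 to 1.08. Exons of *Utp14b*, a gene on the same strand, share 244 bases with *Acsl3* exons in GENCODE M21, so some reads can belong to either gene. Counts of *Utp14b* ranged from 167 to 237 in control and from 226 to 825 in AclyM-KO libraries, and those of *Acsl3* from 528 to 734 and from 1123 to 3457.

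*Acsl1* (NM_007981, GRCm38 chr8:46471037-46536051), a synthetase of mitochondria and the endoplasmic reticulum, was at 52.7, 57.9 and 57.2 CPM in control and at 54.4, 60.6 and 57.3 CPM in AclyM-KO. The groups overlapped, and the 95% interval of its log2 fold change of 0.04 reached from -0.13 to 0.21 (edgeR, adjusted p = 0.790). *Acsl4* (NM_207625, GRCm38 chrX:142317993-142390802) encodes the synthetase that prefers arachidonic acid. It was at 129, 135 and 143 CPM in control and at 138, 186 and 143 CPM in AclyM-KO, a log2 fold change of 0.20 (95% interval -0.02 to 0.43, edgeR adjusted p = 0.236). AclyM-KO replicate 1 lay between control libraries. *Acsl1* exons share 1039 bases with a predicted gene of the other strand, and of the counting's strand treatment it is stated only that default settings were used.

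The shift within the family was described by each gene's share of the summed RPKM of *Acsl1*, *Acsl3*, *Acsl4*, *Acsl5* and *Acsl6*, of which *Acsl6* had 0 counts in every library. *Acsl3* made up 15.3%, 16.6% and 16.1% in control replicates 1, 2 and 3, and the AclyM-KO replicates held 24.7%, 26.3% and 24.3%. With 1 row per gene, its share thus went from the smallest of the 4 detected members to above that of *Acsl1*, a difference of 9.07 percentage points. With RPKM summed over all rows, which counts shared reads repeatedly, *Acsl3* (3 rows) lay above *Acsl1* (2 rows) in control already. *Acsl1* went from 17.3% ± 0.454 to 13.6% ± 1.09 and *Acsl4* from 31.0% ± 0.420 to 26.9% ± 0.956 (SD, n = 3 each). The intervals of their own fold changes, given above, included no change, and the shares of a family sum to the whole. The groups did not overlap in any of the 3 shares, and each exact permutation p was 0.10, the smallest the design allows (0.175 adjusted over 7 member shares). With RPKM summed over all rows of a gene the difference for *Acsl4* was -7.37 percentage points in place of -4.05. *Acsl5*, the intestinal and mitochondrial synthetase, held 35.7% ± 1.01 in control and 34.4% ± 0.910 in AclyM-KO.

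**Figure D2:**
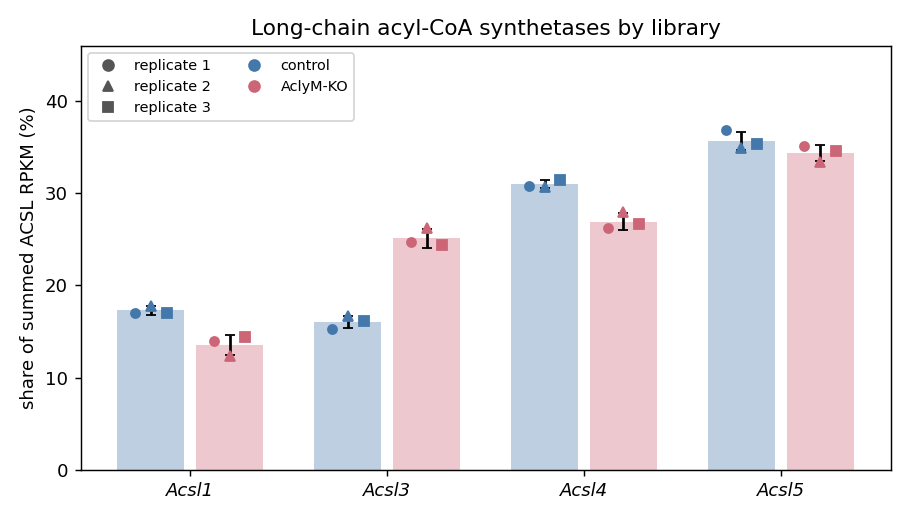
Share of the summed RPKM of the ACSL family (vertical axis, percent, from 0) for 4 synthetases, with bars for the mean, error bars for the SD and points for the 6 libraries. *Acsl3* is at 16.0% in control and 25.1% in AclyM-KO with no overlap between groups, while *Acsl1* and *Acsl4* take lower shares and *Acsl5* overlaps.

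The storage genes did not pass the test. *Plin2* (NM_007408, GRCm38 chr4:86626910-86670217) encodes perilipin 2, the droplet coat protein of most cells that are not adipocytes. It was at 785, 769 and 767 CPM in control and at 644, 863 and 713 CPM in AclyM-KO. The control libraries were nearly equal, while the AclyM-KO libraries lay on both sides of them. Its log2 fold change was -0.06 with a 95% interval from -0.27 to 0.14 (edgeR, adjusted p = 0.720). Without AclyM-KO replicate 2, the only AclyM-KO library above control, *Plin2* was lower in AclyM-KO with a log2 fold change of -0.19 (edgeR, adjusted p = 0.0137). *Plin2* held 91.6% ± 0.301 of the summed perilipin RPKM in control and 92.1% ± 1.79 in AclyM-KO (exact permutation p = 0.9, and the difference turned to -0.51 percentage points without AclyM-KO replicate 2), with *Plin3* making up nearly all of the rest and *Plin1* at 0 counts.

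*Dgat1* (NM_010046, GRCm38 chr15:76502012-76512021) encodes one of the enzymes that complete triglyceride. It was at 12.5, 12.0 and 10.6 CPM in control and at 13.5, 9.07 and 13.2 CPM in AclyM-KO, from 117 to 240 counts per library. AclyM-KO replicate 2 was the lowest of the 6 libraries and the other AclyM-KO libraries were above all control libraries, and the log2 fold change was -0.0028 (95% interval -0.36 to 0.36, edgeR adjusted p = 0.993). Its unrelated partner *Dgat2*, which makes triglyceride from newly made fatty acids, had 3, 2 and 4 counts in control and 12, 38 and 16 in AclyM-KO. The ratio of the summed counts, each divided by the summed TMM library sizes of its group, was 5.26 (95% exact interval 2.61 to 12.0, counting error only), and edgeR's adjusted p was 0.00516. *Dgat1* still held 91.4% ± 2.83 of the summed RPKM of both enzymes in AclyM-KO, against 98.1% ± 0.874 in control (exact permutation p = 0.10, 0.175 adjusted).

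AclyM-KO replicate 2 stood apart in these genes. It was the highest of the 6 libraries in 9 of the 10 and the lowest in *Dgat1*. Over all tested genes it was the highest in 28.7% and the lowest in 27.0%. Against the mean of the other AclyM-KO libraries it was 0.59 higher on the log2 scale in *Msr1*, 0.58 in *Fabp4*, 0.51 in *Cd36* and 0.12 in *Acsl1*, and in *Dgat1* the difference was -0.56. The 5th and 95th percentiles over all genes were -0.52 and 0.51. With this library thinned to the mean total of the other 5, the log2 fold changes of *Acsl3* and *Cd36* were 1.03 and 0.67, close to the values at full depth. Without it, *Fabp4* was at 0.04, *Fabp5* at 0.02 and *Acsl4* at 0.05.

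**Figure D3:**
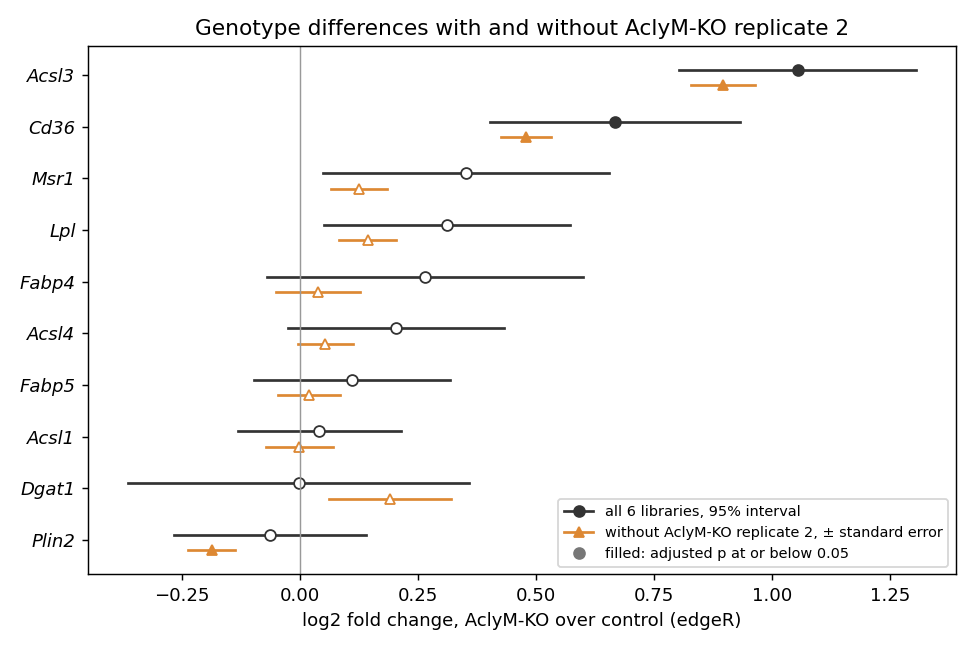
Log2 fold change of AclyM-KO over control (horizontal axis, edgeR) for the 10 genes, from all 6 libraries (black, 95% interval) and without AclyM-KO replicate 2 (orange, ± standard error), with filled markers for an adjusted p at or below 0.05. *Acsl3* at 1.05 and *Cd36* at 0.67 are filled in both, and *Plin2* is filled without the library, at -0.19.

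Levels of different genes were compared per length, in RPKM. In control macrophages *Lpl* was the highest at 1039 ± 96.6 RPKM, followed by *Fabp5* at 609 ± 52.4, *Plin2* at 405 ± 3.56, *Cd36* at 398 ± 25.2, *Fabp4* at 118 ± 17.5 and *Msr1* at 82.5 ± 4.17 (SD, n = 3 each). The synthetases were lower, with *Acsl4* at 25.4 ± 1.5, *Acsl1* at 14.2 ± 0.788 and *Acsl3* at 13.2 ± 1.06 RPKM, and *Dgat1* was the lowest at 6.11 ± 0.488. The highest and the lowest thus differed 170.1-fold. The ranges of the libraries overlapped between *Plin2* and *Cd36* and between *Acsl1* and *Acsl3*, and all other neighbours in this order were separate. In AclyM-KO, *Cd36* at 648 ± 148 RPKM stood above *Plin2* at 397 ± 64.4 without overlap and overlapped *Fabp5*, and *Acsl3* at 27.9 ± 5.21 stood above *Acsl1* at 14.9 ± 0.952 and overlapped *Acsl4* at 29.9 ± 5.43.

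Among all tested genes, those whose log2 CPM followed *Cd36* most closely over the 6 libraries were *Anxa1*, which encodes the phospholipid-binding annexin A1, and *LTO1*, with root mean square differences of 0.0439 and 0.0441. For *Acsl3* they were *S100a4*, a calcium-binding protein gene, and *Dhrs9*, a short-chain dehydrogenase gene, at 0.0515 and 0.0631. Values were centred per gene before comparison.

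Other genes of the same routes were followed in 8 lists of 121 genes, of which 76 were tested. In all, 13 rose and 8 fell, 27.6% of those tested beside 12.3% of all tested genes, and their median log2 fold change was -0.02. Leaving out any 1 control library brought the count from 21 to 11, of 76 to 79 list genes tested. All genes called then went from 1416 to between 598 and 658, of 11574 to 11608 tested. In such bulk samples, fewer cells of a type and less RNA per cell cannot be told apart.

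Among uptake genes and carriers, 5 of the 13 tested rose, 3 fell and 5 did not pass (median log2 fold change 0.19). *Scarb1*, the HDL receptor of the same class as CD36, rose from 125 ± 0.835 to 186 ± 16.6 CPM (edgeR, adjusted p = 9.42e-04), by 0.57 on the log2 scale, the scavenger receptor gene *Colec12* by 0.56, and the acyl-CoA-binding protein gene *Dbi* by 0.40. The fatty-acid transporter gene *Slc27a1* rose by 0.27 and was added to the named genes after its value was seen. *Scarb2*, a lysosomal relative of CD36, fell by 0.60, *Cxcl16*, a receptor for oxidized LDL and a chemokine, fell by 0.52, and *Lrp1*, a receptor for remnant lipoproteins, fell by 0.51 with overlapping libraries. *Stab1* at -0.01 and *Slc27a4* at 0.19 did not pass. *Fabp3* averaged 2.61 ± 0.925 CPM in control libraries against 3.87 ± 0.740 in AclyM-KO and did not pass either (edgeR, adjusted p = 0.173).

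Of the genes that mature or control lipoprotein lipase, 1 of the 6 tested rose and 1 fell (median -0.04). *Angptl4*, a secreted inhibitor of the lipase, had 24, 30 and 26 counts in control and 12, 27 and 12 in AclyM-KO, a ratio scaled to library size in the same way of 0.457 (95% exact interval 0.315 to 0.658, counting error only). *Lipg*, the endothelial lipase gene, had 9, 12 and 11 counts in control and 43, 187 and 39 in AclyM-KO, a ratio scaled likewise of 6.03 (4.17 to 9.0). Without AclyM-KO replicate 2 the *Lipg* ratio was 3.96, an alternative chosen after seeing the data. Both passed the test (edgeR, adjusted p = 0.0161 and 0.00143). The maturation factor genes *Sel1l* at -0.0012 and *Lmf2* at -0.04 did not. Summed endothelial markers ranged from 249.5 to 298 CPM in control and from 365 to 450.1 CPM in AclyM-KO, nearly all *Vwf*, and the part of other cells in the *Lipg* counts was not tested. *Gpihbp1*, which anchors the lipase on endothelium, was at 0.

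Of the other acyl-CoA synthetases, 2 of the 5 tested rose and 1 fell (median -0.02). *Aacs*, which activates acetoacetate, rose from 42.6 ± 2.54 to 117 ± 1.47 CPM (log2 fold change 1.46, edgeR adjusted p = 3.37e-07). *Acsl5* rose by 0.34, and some of its exons overlap *Zdhhc6* on the opposite strand. *Acsf2*, a mitochondrial synthetase of medium chains, fell by 0.82. *Acsf3* at -0.12 and *Acsm3* at -0.02 did not pass. Of the acyl-CoA thioesterases, which reverse the activation, 2 of 9 rose and none fell (median 0.37): *Acot7* at 0.40 and *Acot11* at 0.37, while *Acot9* at 0.18 and *Acot13* at 0.12 did not pass.

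In glycerolipid synthesis 1 of 12 rose, the low *Dgat2* described above (median 0.03), and *Lpin1* at -0.14 and *Agpat3* at -0.02 did not pass. Of the droplet coat and biogenesis genes, 0 of 12 rose and 2 fell (median -0.16), namely *Lpcat2*, a phosphatidylcholine-making enzyme of the droplet surface, by 0.58 and the droplet protein gene *Hsd17b11* by 0.28. *Aup1* at -0.03 and *Rab18* at -0.10 did not pass. In lipolysis 1 of 5 rose (median -0.16), *Abhd5*, the co-activator of adipose triglyceride lipase, at 0.29. *Lipa*, the lysosomal acid lipase gene, at 0.10 and *Pnpla2*, which encodes the adipose triglyceride lipase, at -0.37 did not pass.

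Of 14 regulators of lipid genes tested, 1 rose and 1 fell (median -0.12). *Srebf2*, the factor that drives sterol synthesis, rose by 0.51 on the log2 scale (edgeR, adjusted p = 0.00145). *Cebpa*, a myeloid and adipocyte factor, fell by 0.34 (edgeR, adjusted p = 0.0488). *Pparg*, the nuclear receptor for which *Cd36*, *Fabp4* and *Lpl* are known targets, averaged 45.9 ± 1.68 CPM in control libraries against 47 ± 0.969 CPM in AclyM-KO (log2 fold change 0.03, edgeR adjusted p = 0.824). *Spi1* at -0.11 and *Tfe3* at 0.02 did not pass.

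**Figure D4:**
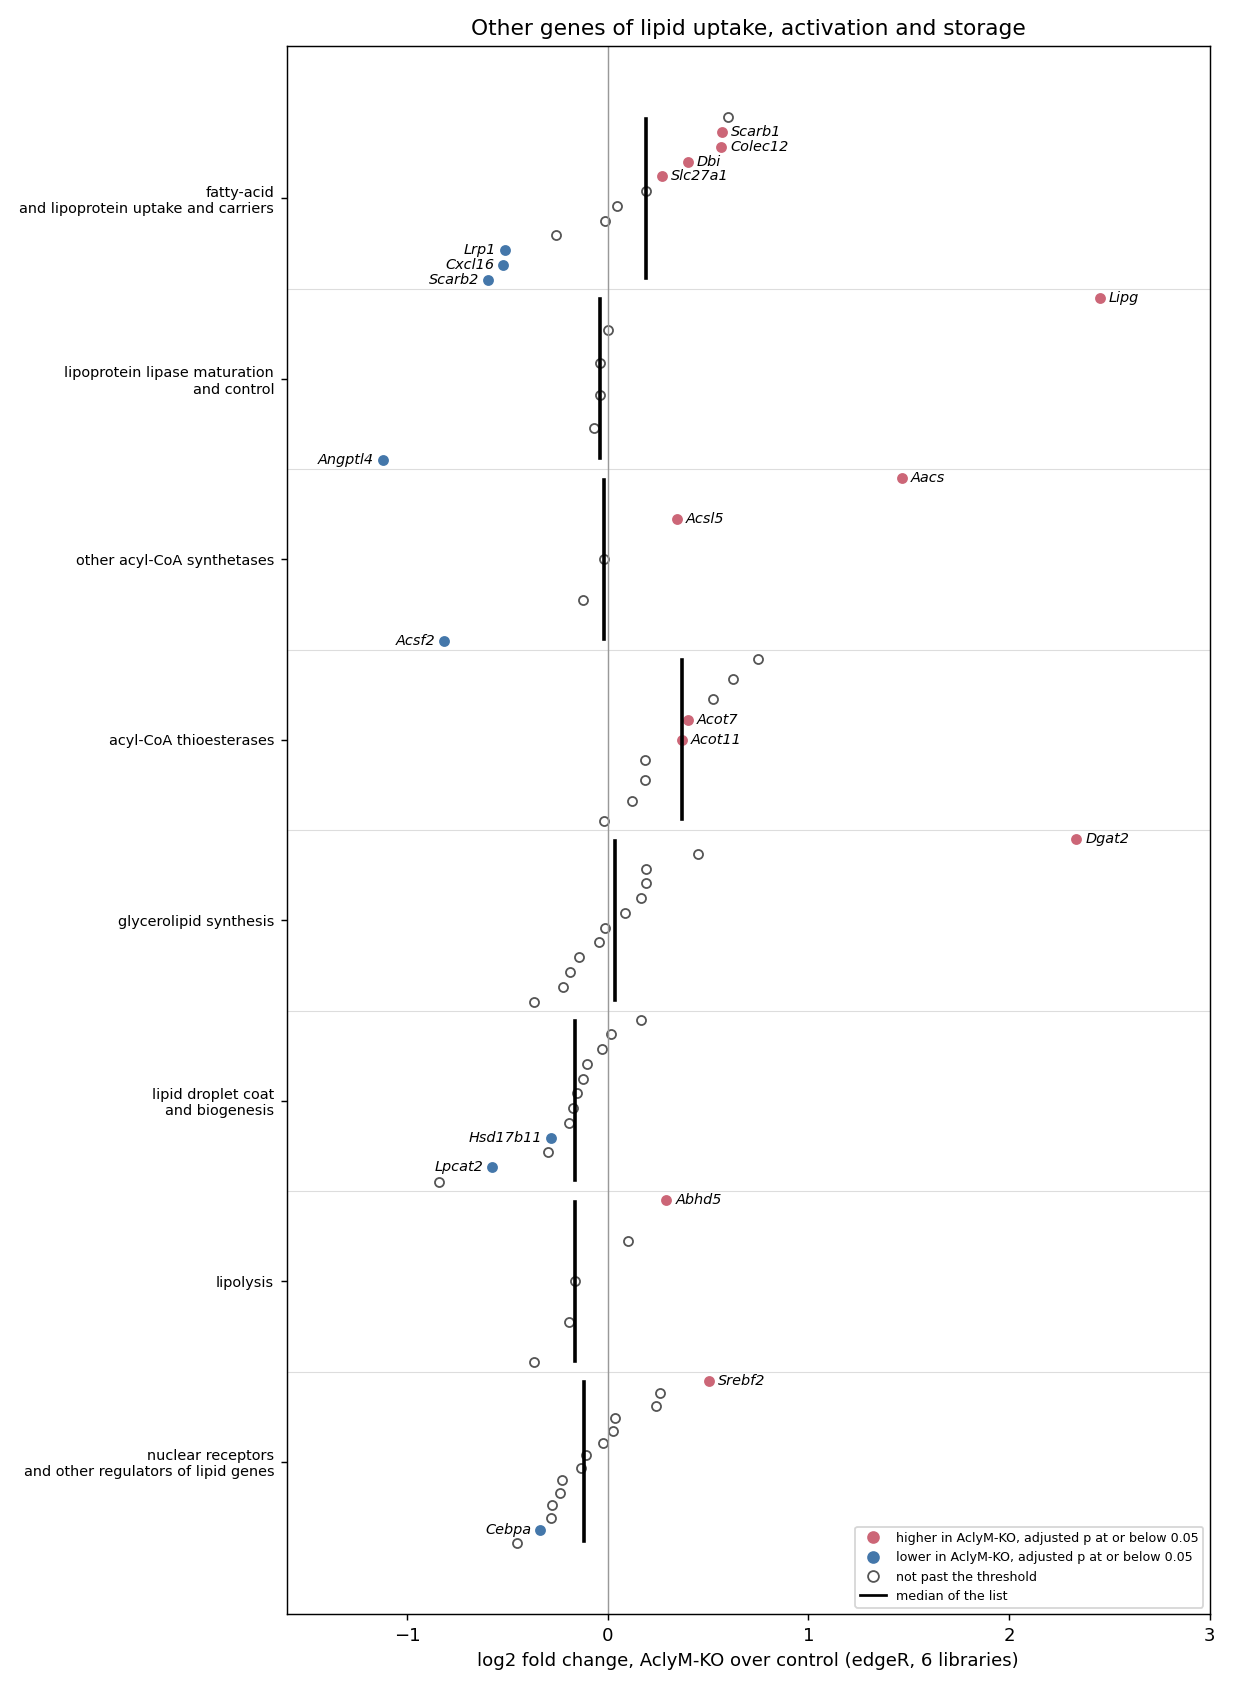
Log2 fold change of AclyM-KO over control (horizontal axis) for 75 genes of the 8 lists, 1 point a gene, filled and named where the adjusted p was at or below 0.05 (12 higher in red, 8 lower in blue), with a black line at each list's median. *Lipg* and *Dgat2*, both with low counts, lie farthest to the right, and the uptake list holds 7 of the 20 filled points.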

How the data were processed

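Total RNA was isolated with DNase treatment and strand-specific KAPA mRNA HyperPrep libraries were sequenced on an Illumina instrument. The authors aligned reads to mm10 with STAR 2.5.2b (with CASAVA 1.8.2 in the submitters' processing notes), filtered alignments by mapping quality and summed raw counts per RefSeq transcript with HOMER2, which they deposited without normalization or pooling. The counting ran at default settings, with no strand setting or RefSeq release spelled out. Of 12 value columns, the 6 that match samples were used and the other 6 were not used here.

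Of 35745 rows, 35440 were given a symbol from a RefSeq gene table and 188 from GENCODE M21, and 117 kept their accession. The row with the highest total over the 6 libraries represented each gene. Totals on this basis ranged from 11120034 to 25814853 counts. Groups were compared with edgeR 4.0.16 in R 4.3.3 (TMM, filterByExpr, quasi-likelihood test, genotype only), with Benjamini-Hochberg adjustment over 11470 genes and a threshold of 0.05. The standard error came from the F statistic, and intervals are 95%. The biological coefficient of variation was 8.90%. CPM used TMM library sizes. RPKM used the length of the longest GENCODE M21 transcript matched to the accession and the total over 1 row per gene. For shares, a missing length was taken from another row of the gene. Shares were compared with two-sided exact permutation tests. Near-identical copies were searched with BLAST+ 2.17.0 (at least 90% identity over 300 bases and 25% of the transcript).

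The members and lists were chosen with earlier results of these data known. Named were all members; up to 4 genes per direction of each list by smallest adjusted p, with up to 2 others of highest CPM; the 2 genes closest to each called member; *Acly* and *Lyz2*. *Slc27a1*, *Fabp3*, *Pparg* and the markers named in the text lie outside this rule and were added after their values were seen. *Spart* was matched as *Spg20*. Alternatives were DESeq2 1.42.0, RLE or no scaling factors, no filter or a minimum of 10 counts per library, a replicate block, voom with sample weights in limma 3.58.1, each library left out, all or summed rows, thinning of AclyM-KO replicate 2 to 11753101 counts and a threshold of 0.01. In counts simulated from the means and library sizes of this comparison, edgeR recovered 199 of 200 changed genes among 209 calls. Only genes above a minimum count were changed, by a full log2 unit, with the same dispersion for all genes. This cannot show how smaller changes, low counts or a deviating library would be called. Summed markers of neutrophils ranged from 27.5 to 31.1 CPM over both groups and those of dendritic cells, fibroblasts, lymphocytes and erythroid cells at or below 2.01 CPM, while those of osteoclasts ranged from 497 to 519 CPM in control and from 393 to 450.3 CPM in AclyM-KO, nearly all *Atp6v0d2* (log2 fold change -0.27, edgeR adjusted p = 0.0291), with *Ctsk* higher in AclyM-KO at 14.6 against 5.27 CPM (1.47, adjusted p = 1.38e-04). Stimulated macrophages were not analysed here. A withheld item is not reported here, although it stays in the counts and medians.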

Additional observations from a re-analysis of the deposited data

How the results depend on the processing

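*Acsl3* and *Cd36* passed in all 16 alternatives, with log2 fold changes from 0.90 to 1.12 and from 0.48 to 0.77 and adjusted p-values up to 0.0025 and 0.035. The replicate number as a block or no filter on low counts brought the members called from 2 to 4 (adding *Msr1* and *Lpl*), beside 13.8% and 11.1% of all genes tested at these settings. Leaving out 1 library gave 2 to 4 members, beside 598 to 2136 genes called of 11554 to 11608 tested. Without AclyM-KO replicate 2 the 3 members called were 2 higher and 1 lower, *Plin2*. Deviations from the group means correlated at 0.0887, 0.111 and -0.0449 between same-numbered libraries. Between libraries of different numbers they correlated at -0.130 to 0.0656, and not every library correlated best with its own number. Whether the numbers pair samples cannot be decided from such weak correlations. *Dgat1*, at -0.0028, was at 0.0053 with DESeq2, 0.0327 with total counts only, 0.12 with limma-voom, 0.00075 with summed rows and 0.00089 with all RefSeq rows, and from -0.11 to 0.19 with 1 library left out. *Acsl1* then ranged from -0.0011 to 0.0733 and *Plin2* from -0.19 to 0.0221. List genes called, 21, were 10 at a threshold of 0.01 and 11 to 30 with 1 library left out. All genes called, 1416 of 11470, were 2187 with limma-voom, 557 at 0.01 and 598 to 2136 with 1 library left out. With all RefSeq rows, 2446 of 18933 rows were called, which are not separate genes. Total counts only called 919 higher and 508 lower (64.4% higher against 54.2%). With RPKM summed over rows the difference in share was 12.8 percentage points for *Acsl3* and -7.37 for *Acsl4*, that of *Fabp5*, -1.47, ranged from -2.08 to -0.39 and that of *Fabp4*, 1.32, from 0.253 to 1.90 with 1 library left out, and that of *Plin2*, 0.505, ranged from -0.51 to 1.19 with 1 library left out. With 1 control library left out, 2 remain to give the spread. The cause of these differences was not tested, beyond fewer samples, a stricter threshold and more rows tested.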
